A study of Rattus norvegicus with 3 samples.

Results

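The genes described here encode collagen chains, laminin chains, fibulins, matrix metalloproteinases (Mmps), their tissue inhibitors (Timps) and a few further matrix proteins, as probed on an Agilent rat expression array. They were chosen by a rule on gene names, set with earlier results of these data known. It takes a collagen chain symbol, a symbol beginning with Lama, Lamb, Lamc, Fbln, Mmp or Timp and a digit, or 1 of 10 named genes (Fn1, Postn, Dcn, Lum, Sparc, Eln, Fbn1, Lox, Bgn and Vcan). The rule found 75 genes with 104 probes, among 15903 gene names matched to RefSeq genes and 41012 probes in all. No probe carries the name Vcan.

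The groups are the sublingual gland, the submandibular gland and the parotid gland of untreated male Wistar rats aged 10 weeks, with 1 array for each gland. All animals were bought and housed alike, and no mutant or treated group exists. According to the design text 3 rats were used, but the sources used here do not tell which of them each array represents. No value below has a replicate, so no p-value is given and differences describe these 3 arrays only. The RNA came from pieces of whole gland, so fewer cells of a type and less RNA per cell cannot be told apart.

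Extracellular matrix is made of fibrillar collagens that give the stroma its strength, and of thin basement membranes under epithelium, muscle, nerve and vessel. Basement membranes hold laminins, which are trimers of 1 alpha, 1 beta and 1 gamma chain and bind integrins, together with a network of type IV collagen. Mmps are zinc proteases that cut matrix proteins, and Timps inhibit them. In salivary glands, acini and ducts rest on such basement membranes, with myoepithelial cells lying between the membrane and the secretory cells.

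A level below is the log2 processed signal of a probe minus the 75th percentile of its array, and a difference is the level on 1 array minus that on another. Genes were compared where at least 1 of the 2 arrays was well above background. Where the dimmer array was not, the fold is a bound, written "at least", against the higher of the lowest well-above-background level on that array and the probe's own level. The 75th percentile was a signal of 244 (sublingual), 228 (submandibular-labelled) and 186 (parotid), and no spot was saturated. Repeat spots of 1 probe had a median SD of 0.09, 0.08 and 0.09 on the sublingual, submandibular-labelled and parotid arrays.

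The labels were set against markers of each gland. All 10 markers of serous acini, which fill the parotid, were lower by 2-fold or more in the sublingual comparison with the parotid, with a median difference of -8.74. Mucous markers were higher there than on the parotid array in 8 of the 9 compared. On the submandibular-labelled array, 9 of 10 mucous markers were higher than on the parotid array. Markers of the granular convoluted ducts, the androgen-dependent ducts particular to the rodent submandibular gland, did not clearly bear out its label. Against the parotid array 9 could be compared: 0 were higher by 2-fold and 1 was lower, while 3 were higher to any extent. Between sublingual and submandibular-labelled 7 could be compared, and 6 were lower to any extent on the sublingual array, with a median of -0.38. By 2-fold, 1 of these 7 was lower and 1 higher on the sublingual array. Over the 9403 genes measurable on every array, a description across genes, the sublingual and submandibular-labelled arrays had a Pearson correlation of 0.991, whereas each correlated with the parotid array at 0.918 and 0.919. The second array is therefore called submandibular-labelled throughout.

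More matrix genes were lower than higher on the sublingual and submandibular-labelled arrays relative to the parotid array. Of the 75 members, 52 (69.3%, sublingual), 49 (65.3%, submandibular-labelled) and 52 (69.3%, parotid) were well above background. The shares among all gene names tested were near these, at 64.0%, 63.0% and 64.7% in that order. Of the members, 48 were well above background on every array and 21 on none. Between sublingual and parotid, 54 members were compared: 7 (13%) were higher by 2-fold or more and 15 (27.8%) were lower to that extent. Among all 10782 genes compared, 12.5% were higher and 12.3% were lower by that measure, so the share of lower members, but not that of higher ones, stood above the background. At 4-fold, 3 members were higher and 3 lower, against 3.02% and 2.84% of all genes. The median difference of the members was -0.38, against 0.06 over all genes.

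Between submandibular-labelled and parotid, 52 members were compared, of which 7 (13.5%) were higher by 2-fold or more and 13 (25%) lower. The shares among all 10775 genes compared were 10.9% higher and 11.3% lower. At 4-fold, 2 members were higher and 5 lower, against 2.86% and 2.84% of all genes. The median of the members was -0.44, against 0.10 over all genes. Both comparisons use the same parotid array, and the first 2 arrays are nearly alike, so the second count is not a separate sighting of the first. Scaling shifts all genes alike: with each array centred on its median, the median over all genes was 0.30 between sublingual and parotid and 0.41 between submandibular-labelled and parotid. The members' medians were then -0.14 and -0.12, still below those of all genes, and the split of calls was 8 higher and 11 lower in the first comparison and 7 and 10 in the second. With normexp background correction the split was 3 higher and 12 lower, and 3 and 11. The shares over all genes given above hold for the main scaling and are not the background of these splits.

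Between sublingual and submandibular-labelled, 52 members were compared and 0 were counted past 2-fold in either direction, against 0.964% of all genes higher and 0.588% lower (0.135% and 0.0771% at 4-fold). The median was -0.04 for the members and -0.04 for all genes. The 49 members measured on both arrays differed by -0.67 to 0.62. The other 3 have bounds just short of 2-fold and so are not settled: they were higher on the sublingual array by at least 1.96-fold (Mmp24), 1.93-fold (Mmp27) and 1.75-fold (Col8a1).

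**Figure D1:**
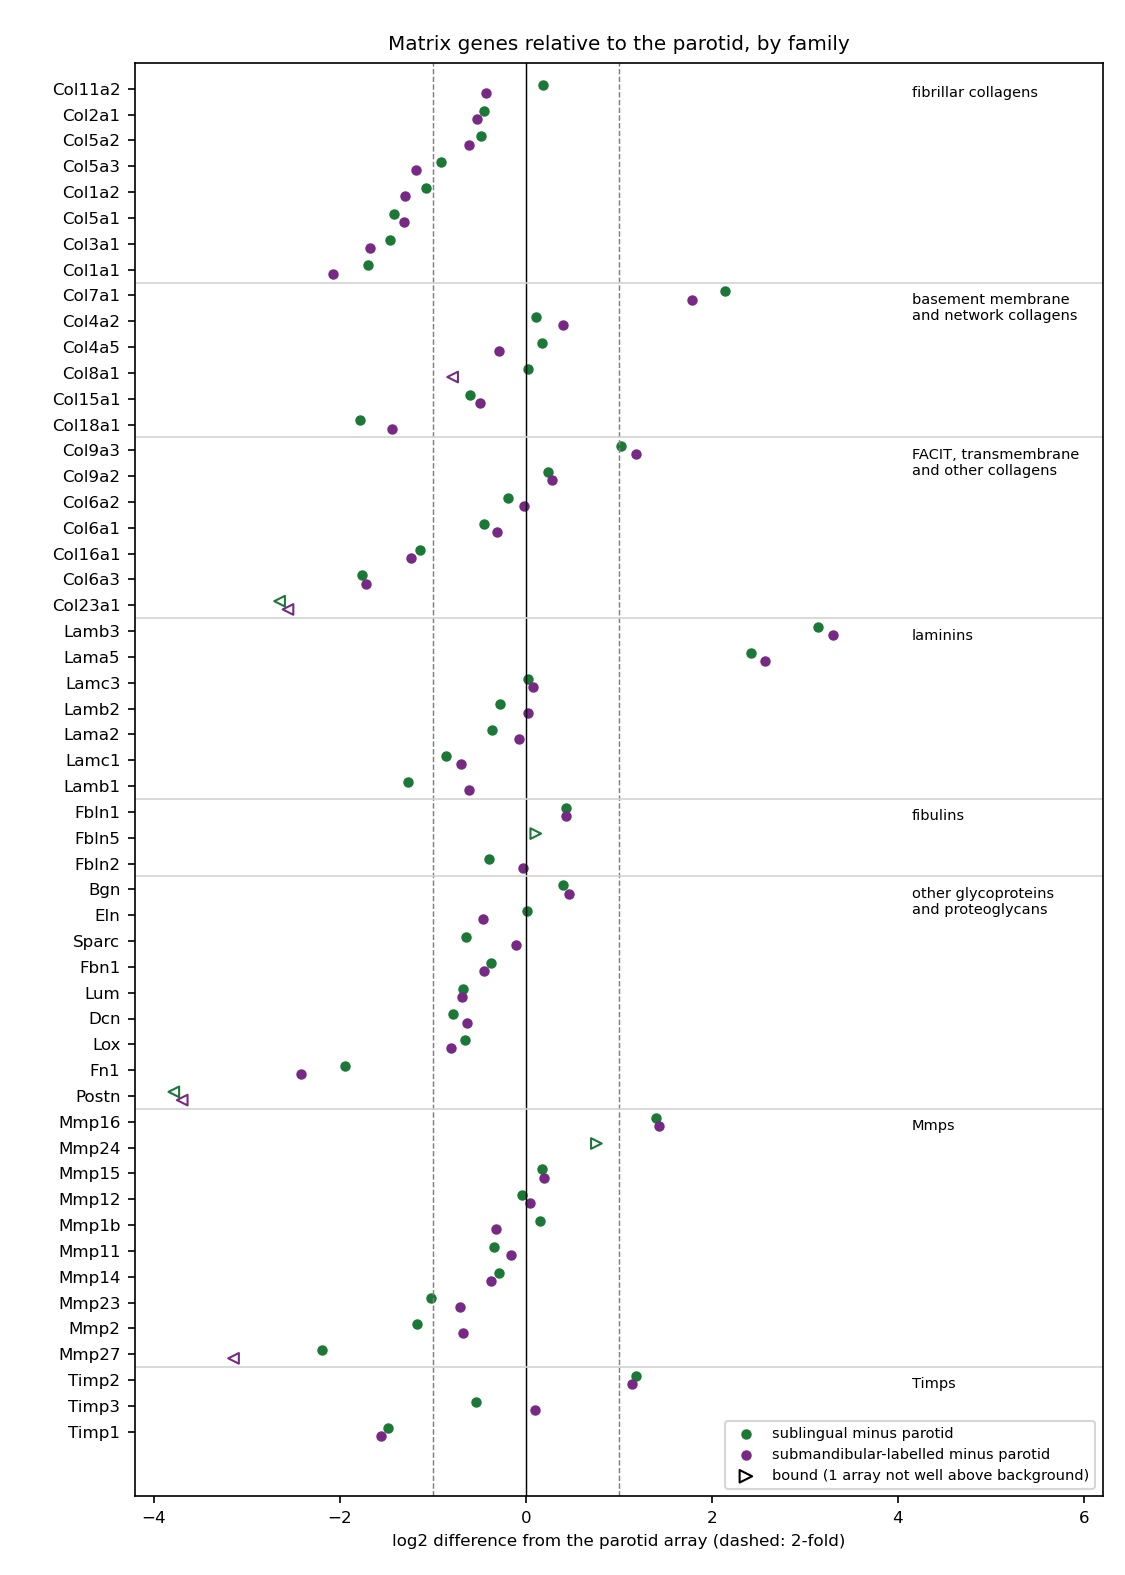
Log2 difference of compared members from the parotid array (x axis) by family, for the sublingual array (green) and the submandibular-labelled array (purple); open triangles are bounds and dashed lines mark 2-fold. Col1a1 at -1.69 and -2.08, Fn1 at -1.94 and -2.42 and Postn lie to the left, and Lamb3 at 3.14 and 3.30 and Lama5 at 2.42 and 2.57 lie farthest to the right.

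Several fibrillar collagens, which form the stromal fibres, were lower on the sublingual and submandibular-labelled arrays. Of 10 probed chains 8 were compared, and 4 of them (sublingual) and 5 of them (submandibular-labelled) were lower than the parotid by 2-fold or more, with 0 higher, against 12.3% and 11.3% lower among all genes. With normexp correction or median centring the counts were 3 and 3, for which no share over all genes is given. The median differences from the parotid array were -0.996 and -1.24.

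Col1a1, the alpha 1 chain of type I collagen and probed at chr10:83638177-83638236 of rn4, read 4.82 (sublingual), 4.44 (submandibular-labelled) and 6.51 (parotid), which is 3.23-fold and 4.22-fold lower than the parotid. The other 2 arrays therefore lay well apart from the parotid and close to each other. Its 2 other probes were lower too, by -1.67 and -1.33 in the first comparison and by -1.48 and -1.23 in the second. Col1a2, the partner chain of Col1a1 in the type I trimer, read 4.82 (sublingual), 4.60 (submandibular-labelled) and 5.90 (parotid), which is 2.11-fold and 2.46-fold lower than the parotid. Col3a1 forms the homotrimer of type III collagen, which runs with type I in reticular fibres. Its levels were 3.21 (sublingual), 3.00 (submandibular-labelled) and 4.67 (parotid), or 2.75-fold and 3.19-fold lower.

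Type V collagen nucleates type I fibrils. Its Col5a1 chain read -0.76 (sublingual), -0.66 (submandibular-labelled) and 0.65 (parotid), which is 2.66-fold and 2.49-fold lower than the parotid. Col5a3 was at -0.22 (sublingual), -0.48 (submandibular-labelled) and 0.70 (parotid), so only the submandibular-labelled difference of -1.17 passed 2-fold. Col5a2, whose gene neighbours Col3a1 on chromosome 9, differed less, by -0.48 on the sublingual array and -0.61 on the submandibular-labelled array. Col2a1 and Col11a2 were under 2-fold in both comparisons, and Col11a1 and Col27a1 were not well above background on any array. After normexp background correction the sublingual difference of Col1a2 and the submandibular-labelled differences of Col5a1 and Col5a3 fell short of 2-fold. Median centring ended the calls of Col1a2 in both comparisons, at -0.83 and -0.99, and that of Col5a3 on the submandibular-labelled array, at -0.86.

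**Figure D2:**
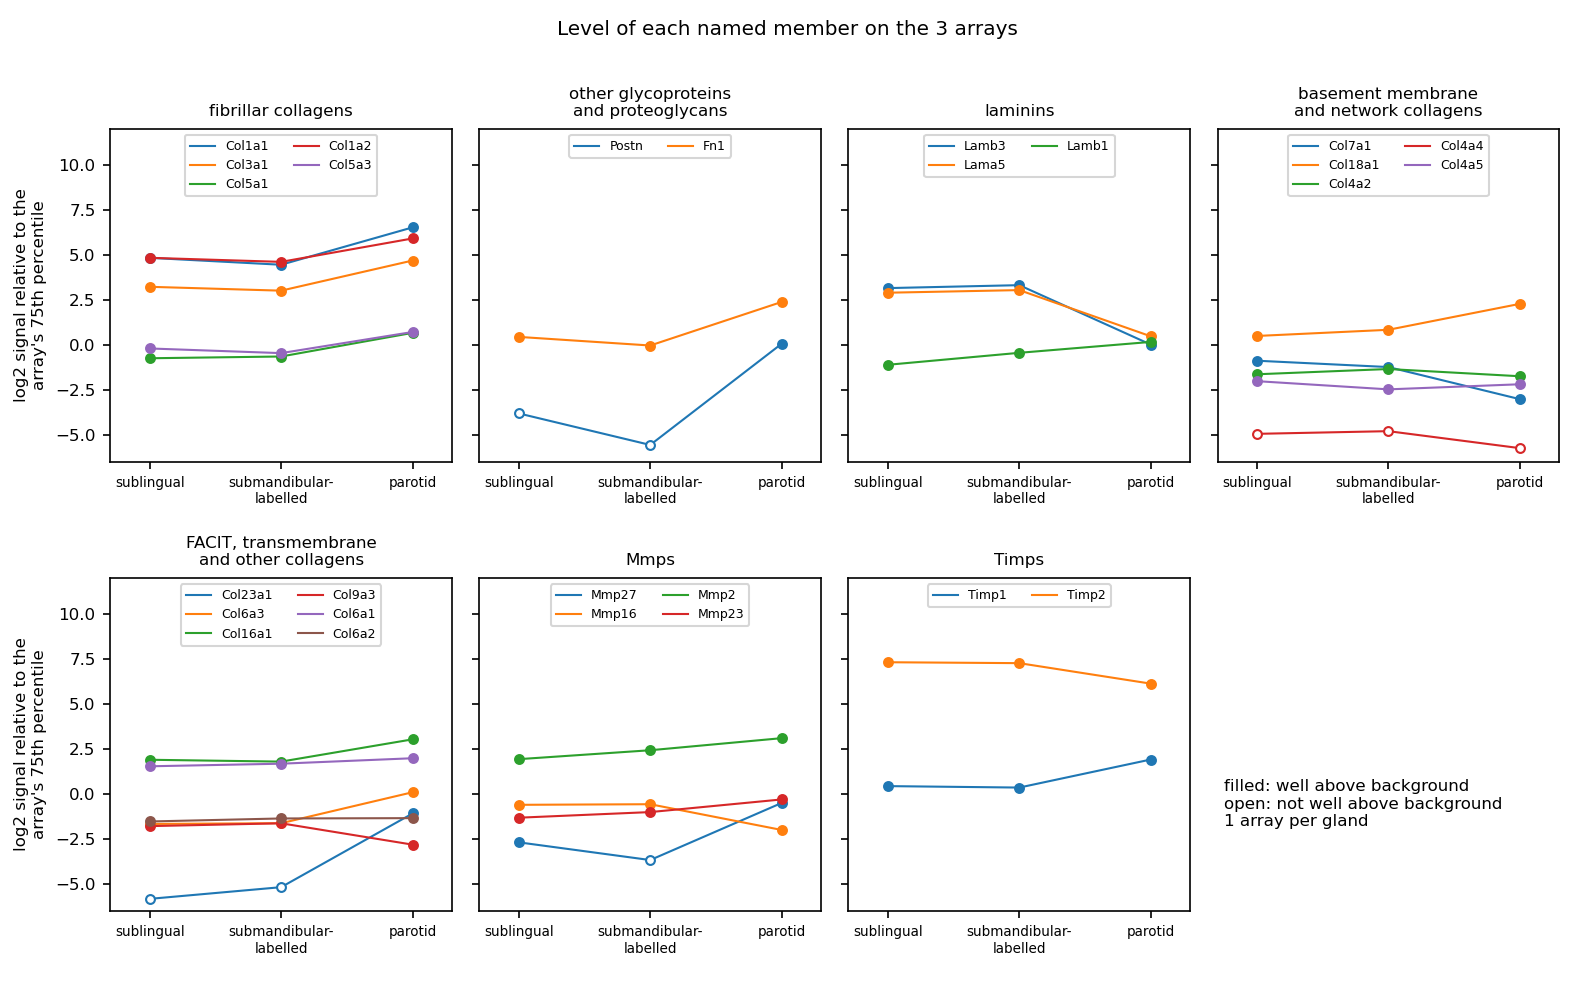
Levels of the named members on the 3 arrays (x axis: sublingual, submandibular-labelled, parotid; y axis: log2 signal relative to the array's 75th percentile), 1 panel per family; open points were not well above background. The lines of Col1a1, Col1a2 and Col3a1 run upward towards the parotid, where Col1a1 read 6.51, while those of Lamb3 and Lama5 run downward, to 0.00 and 0.46.

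The basement membrane and network collagens did not move together. Of 9 probed chains 6 were compared, and 1 was at least 2-fold higher and 1 lower on each of the sublingual and submandibular-labelled arrays. Among all genes 12.5% were higher and 12.3% lower (sublingual), and 10.9% and 11.3% (submandibular-labelled). Col7a1, the chain of the anchoring fibrils that tie epithelial basement membrane to stroma, was probed at chr8:114002273-114002332 (rn4). It read -0.90 (sublingual), -1.25 (submandibular-labelled) and -3.03 (parotid), or 4.40-fold and 3.45-fold higher. The parotid level is close to the lowest well-above-background level of that array, -3.43, and after normexp correction the differences were 0.77 and 0.44.

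Col18a1, a basement membrane collagen whose cleaved end is endostatin, went the other way. It read 0.48 (sublingual), 0.82 (submandibular-labelled) and 2.26 (parotid), which is 3.45-fold and 2.72-fold lower, and its second probe differed by -1.83 and -1.49. Of the type IV chains, which build the basement membrane network itself, Col4a2 read -1.65 (sublingual), -1.36 (submandibular-labelled) and -1.76 (parotid), all within 2-fold. Col4a5, a chain of the type IV network of kidney and other selected membranes, read -2.03 (sublingual), -2.49 (submandibular-labelled) and -2.21 (parotid), and Col4a4 was not well above background on any array. Among the members, the 2 type IV chains that could be compared thus showed no 2-fold difference between glands. Col15a1, a close relative of Col18a1, differed by -0.60 and -0.49, under 2-fold. Col8a1, a network collagen of vessels, differed by 0.02 on the sublingual array and was lower by at least 1.72-fold on the submandibular-labelled array, where it was not well above background. Col10a1 and Col8a2 were not well above background on any array.

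Among 11 further collagens, 7 were compared, with 1 at least 2-fold higher and 3 lower on each of the sublingual and submandibular-labelled arrays. The shares over all genes were 12.5% higher and 12.3% lower (sublingual), and 10.9% and 11.3% (submandibular-labelled). Col23a1, a transmembrane collagen, was well above background on the parotid array only: it read -5.84 (sublingual), -5.19 (submandibular-labelled) and -1.09 (parotid). Relative to the parotid it was lower by at least 6.26-fold (sublingual) and at least 5.88-fold (submandibular-labelled), and its second probe gave bounds of -2.54 and -2.45 on the log2 scale. After normexp correction, whose offset narrows differences of dim probes, the bounds of the first probe were -1.39 and -1.27.

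Type VI collagen forms beaded microfilaments from 3 chains, and these chains differed unequally. Col6a3 read -1.67 (sublingual), -1.63 (submandibular-labelled) and 0.09 (parotid), 3.39-fold and 3.30-fold lower than the parotid. Col6a1 was at 1.53 (sublingual), 1.68 (submandibular-labelled) and 1.98 (parotid), a difference of -0.45 and -0.30. Col6a2, whose gene lies beside Col6a1 on chromosome 20, read -1.53 (sublingual), -1.37 (submandibular-labelled) and -1.35 (parotid), a difference of -0.19 and -0.02.

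Col16a1, a fibril-associated collagen, read 1.90 (sublingual), 1.79 (submandibular-labelled) and 3.03 (parotid). It was 2.20-fold and 2.36-fold lower than the parotid, and its second probe differed by -1.92 and -0.89. With median centring it fell short of 2-fold in both comparisons, at -0.89 and -0.93. The only higher gene of these was Col9a3, a chain of the fibril-associated type IX collagen best known from cartilage, at -1.79 (sublingual), -1.64 (submandibular-labelled) and -2.82 (parotid). Its differences of 1.03 and 1.19 fell short of 2-fold after normexp correction. Its partner chain Col9a2 differed by 0.24 and 0.29, and Col9a1, Col14a1, Col17a1 and Col22a1 were not well above background on any array.

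Fibronectin and periostin were the lowest of the 9 non-collagen glycoproteins and proteoglycans relative to the parotid, and the other 7 stayed within 2-fold. Postn, a matricellular protein made by fibroblasts that binds collagen and integrins, was well above background on the parotid array only. Its probe at chr2:143560792-143561828 (rn4, as the array design lists it) read -3.83 (sublingual), -5.58 (submandibular-labelled) and 0.05 (parotid). Relative to the parotid this is lower by at least 13.8-fold (sublingual) and at least 12.9-fold (submandibular-labelled). The normexp bounds were smaller, at -1.80 and -1.89 on the log2 scale, and still past 2-fold.

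Fn1 encodes fibronectin, which links integrins to collagen. Its brighter probe at chr9:70702316-70702375 (rn4) read 0.43 (sublingual), -0.05 (submandibular-labelled) and 2.37 (parotid), or 3.84-fold and 5.35-fold lower. A second Fn1 probe, printed in 10 spots per array, read -2.03 with an SD over spots of 0.132 (sublingual), -1.81 with 0.171 (submandibular-labelled) and 1.02 with 0.0858 (parotid), so the gaps of -3.05 and -2.84 are far wider than the spread of spots within an array. The 2 probes agree in direction and differ in size, by over 2-fold in the sublingual comparison.

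The small proteoglycans Bgn and Dcn were within 2-fold. Bgn (biglycan), which binds collagen fibrils, read 5.69 (sublingual), 5.75 (submandibular-labelled) and 5.29 (parotid). Dcn (decorin), its close relative, read 3.40 (sublingual), 3.55 (submandibular-labelled) and 4.18 (parotid). Sparc, a collagen-binding matricellular protein of basement membranes, read 4.37 (sublingual), 4.91 (submandibular-labelled) and 5.02 (parotid). Lum (lumican), Lox (the collagen and elastin cross-linking oxidase), Fbn1 (fibrillin of microfibrils) and Eln (elastin) were under 2-fold in both comparisons. Among the 3 fibulins probed, glycoproteins of elastic fibres and basement membranes, no measured difference reached 2-fold, and Fbln5 had only a bound of 0.11, on the sublingual array.

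Laminins held the members with the largest positive differences. Of 9 probed chains 8 were compared. On the sublingual array 3 were higher than the parotid by 2-fold or more and 1 was lower, against 12.5% higher and 12.3% lower among all genes. On the submandibular-labelled array the counts were 3 and 0, against 10.9% and 11.3%. The family's median was close to 0, at -0.13 and 0.05, and its sign depended on the processing. With median centring the sublingual median was 0.12. With the median over a gene's probes the submandibular-labelled median was -0.10, while it stayed above 0 under each scaling. No direction is therefore given for laminins as a whole.

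Lama5, the alpha chain most widespread in adult epithelial basement membranes, read 2.88 (sublingual), 3.03 (submandibular-labelled) and 0.46 (parotid) with its probe at chr3:169234188-169234247 (rn4). It was 5.36-fold and 5.93-fold higher than on the parotid array, and a second probe differed by 2.27 and 2.50. The remaining probe lay near background and gave a bound of only 0.20 in the sublingual comparison.

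Lamb3 encodes the beta chain of the laminin that anchors epithelium and myoepithelium through hemidesmosomes. The brightest of 4 Lamb3 probes, at chr13:109190212-109190271 (rn4), read 3.14 (sublingual), 3.30 (submandibular-labelled) and 0.00 (parotid), 8.81-fold and 9.87-fold higher. The nearest other probe, starting at 109187343, was higher as well, by 3.25 and 3.71. Another, starting at 109182582, went in the opposite direction, at -0.82 and -0.53, and the fourth, starting at 109170494, was not well above background on any array. The difference of Lamb3 therefore rests on the 2 probes at the high end of the probed stretch.

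Lamb1, the beta chain most common outside that hemidesmosomal laminin, read -1.12 (sublingual), -0.46 (submandibular-labelled) and 0.15 (parotid), lower by 2.41-fold (sublingual) and 1.52-fold (submandibular-labelled). Lamb2, the beta chain of muscle and nerve basement membranes, lay within 2-fold in both comparisons. Between sublingual and submandibular-labelled, all 8 laminins compared were slightly lower, by -0.67 to -0.05. The sublingual difference of Lamb1 fell short of 2-fold after normexp correction.

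**Figure D3:**
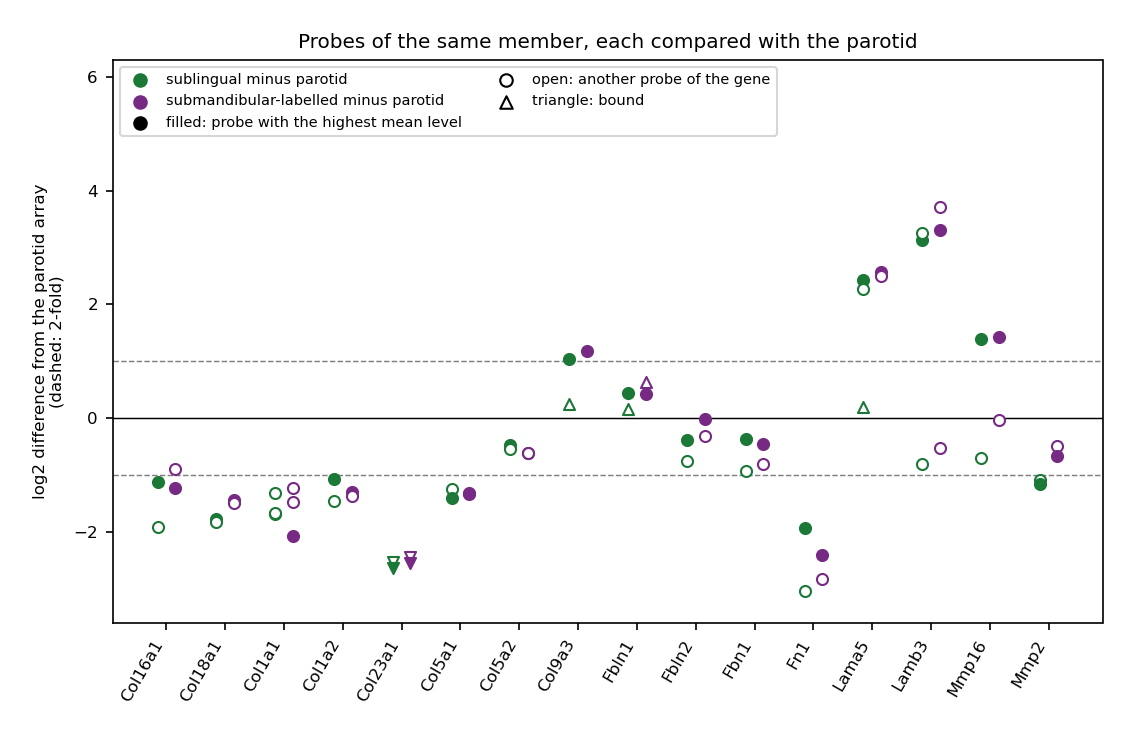
Log2 difference from the parotid array (y axis) of each compared probe, by member (x axis), for members with more than 1 compared probe; filled points are the brightest probe, open points the others, triangles bounds. Probes of Col1a1, Fn1 and Col18a1 lie on 1 side of 0, whereas those of Lamb3 and Mmp16 lie on both sides.

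Several probes of a gene gave a check within the array. In the sublingual comparison with the parotid, 17 members had at least 2 compared probes, and the probes shared a sign in 14. In the submandibular-labelled comparison with the parotid, 13 of 16 shared a sign. Lamb3 and Mmp16 were among the exceptions in both. Between sublingual and submandibular-labelled, where differences were small, 6 of 15 shared a sign and 9 did not.

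Many Mmps were not well above background. Of 21 probed Mmps, 10 (sublingual), 8 (submandibular-labelled) and 9 (parotid) were so. The shares among all gene names tested were 64.0%, 63.0% and 64.7% in that order. On no array were 11 of the 21 well above background. The Mmp genes fall into 2 groups by position. In the first, 10 lie within 365 kb on rat chromosome 8 (rn4, 4168554 to 4533706), the cluster of collagenases, stromelysins and related secreted enzymes. The other 11 lie elsewhere. In the cluster 7 of 10 were not well above background on any array (Mmp3, Mmp7, Mmp8, Mmp10, Mmp13, Mmp1a and Mmp20), against 4 of the 11 elsewhere.

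Promoter letters differed between the 2 groups of Mmps. In the 250 bases before the RefSeq start (GRCr8), TATAAA, the core of a TATA box, occurred on either strand in 8 of the 10 clustered genes, in 1 of 5 other Mmps with a promoter in the table, and in 12.9% of 33469 promoters. TGANTCA, with any letter at N, takes in TGAGTCA and TGACTCA, the letters bound by AP-1 factors, but is wider than these. It occurred in 7 of the 10, in 0 of the other 5 and in 6.34% of all promoters. TATAAA and TGANTCA both occurred in 7 of the 10 and in 1.02% of all promoters. The motifs do not overlap each other in letters. GGGCGG, the GC box letters, occurred in 0 of the 10, in 4 of the other 5 and in 30.5% of all promoters.

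The 7 clustered promoters with both motifs are printed below as the 100 bases before the start, from RefSeq (GRCr8), in lower case with TGANTCA and TATAAA in capitals, to show their like layout. Only Mmp12 among them was well above background, and it was so on all 3 arrays. A match describes letters and not a bound site.
Mmp13, chr8:12782729-12782828, + strand: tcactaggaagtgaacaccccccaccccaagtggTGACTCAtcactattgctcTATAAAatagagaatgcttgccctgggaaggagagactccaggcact
Mmp12, chr8:12866552-12866651, + strand: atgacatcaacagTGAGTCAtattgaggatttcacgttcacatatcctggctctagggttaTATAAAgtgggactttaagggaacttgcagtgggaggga
Mmp3, chr8:12925181-12925280, + strand: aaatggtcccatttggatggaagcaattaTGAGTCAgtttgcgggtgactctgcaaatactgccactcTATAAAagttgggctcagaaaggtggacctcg
Mmp1a, chr8:12943353-12943452, + strand: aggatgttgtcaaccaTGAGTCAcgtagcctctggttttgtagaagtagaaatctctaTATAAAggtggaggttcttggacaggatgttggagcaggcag
Mmp10, chr8:12974607-12974706, + strand: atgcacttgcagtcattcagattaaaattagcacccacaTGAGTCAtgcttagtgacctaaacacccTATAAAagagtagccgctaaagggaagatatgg
Mmp20, chr8:13074179-13074278, + strand: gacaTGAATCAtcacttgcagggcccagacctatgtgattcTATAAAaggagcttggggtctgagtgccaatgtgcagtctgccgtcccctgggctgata
Mmp7, chr8:13132943-13133042, + strand: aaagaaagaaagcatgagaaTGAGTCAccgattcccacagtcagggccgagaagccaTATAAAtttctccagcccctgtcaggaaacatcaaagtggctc

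In each of the 7 sequences the TGANTCA match stands before the TATAAA match on the gene's own strand. The match of Mmp20 reads TGAATCA, which is neither AP-1 form. Since 6 of these genes were not well above background on any array, their levels cannot be compared between glands. Mmp12, the macrophage elastase, read 0.24 (sublingual), 0.32 (submandibular-labelled) and 0.28 (parotid). Of the other members of the cluster, Mmp1b was under 2-fold in both comparisons, and it is a close paralog of Mmp1a, so shared signal between their probes was not tested.

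Mmp27, a stromelysin-like member of the same cluster, was the largest difference among the Mmps. It read -2.69 (sublingual), -3.68 (submandibular-labelled) and -0.51 (parotid), and was 4.56-fold lower on the sublingual array. On the submandibular-labelled array it was not well above background, and at least 8.82-fold lower. After normexp correction the differences were -1.30 and, as a bound, -1.48.

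Outside the cluster, Mmp2, the gelatinase made by stromal cells, was printed in 10 spots per array. It read 1.93 (sublingual), 2.43 (submandibular-labelled) and 3.10 (parotid), with SDs over spots of 0.0403, 0.0448 and 0.0315 on those arrays. It was lower than the parotid by 2.25-fold (sublingual) and 1.59-fold (submandibular-labelled), and a second probe differed by -1.09 and -0.50. Its 3 levels are separated by more than the spread of spots, which holds for these RNA extracts only. With median centring its sublingual difference was -0.92, short of 2-fold. Mmp14, the membrane-bound activator of Mmp2, was within 2-fold, at 3.20 (sublingual), 3.12 (submandibular-labelled) and 3.49 (parotid).

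Mmp23, a membrane-associated member of the family, read -1.32 (sublingual), -1.01 (submandibular-labelled) and -0.31 (parotid), lower by 2.02-fold (sublingual), at the limit, and 1.63-fold (submandibular-labelled). Its sublingual call was lost with normexp correction, median centring and quantile normalization, at -0.70, -0.77 and -0.96. Mmp16, a membrane-type Mmp, read -0.61 (sublingual), -0.58 (submandibular-labelled) and -2.01 (parotid), 2.63-fold and 2.70-fold higher. Its second probe went the other way, at -0.71 and -0.04, so its direction is not settled. Mmp11 and Mmp15 were under 2-fold in both comparisons. Mmp24 was well above background on the sublingual array only, higher than the parotid by at least 1.69-fold, which does not settle whether it passed 2-fold, and Mmp9, Mmp17, Mmp19 and Mmp21 were not well above background on any array.

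The Timps diverged. Timp1, the inducible inhibitor, was printed in 10 spots at chrX:12542700-12543703 (rn4, as the array design lists it). It read 0.43 (sublingual), 0.35 (submandibular-labelled) and 1.91 (parotid), with SDs over spots of 0.0561, 0.0575 and 0.0553, and was 2.79-fold and 2.95-fold lower than the parotid. Timp2, which also takes part in activation of Mmp2 by Mmp14, was higher. Its probe at chr10:108311244-108311303 (rn4) read 7.32 (sublingual), 7.27 (submandibular-labelled) and 6.13 (parotid), 2.28-fold and 2.20-fold higher. Timp3, the matrix-bound inhibitor, read -2.24 (sublingual), -1.61 (submandibular-labelled) and -1.71 (parotid), within 2-fold of the parotid.

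Genes that make, cross-link or bind these proteins were listed by function and compared in the same way. The shares over all genes, 12.5% higher and 12.3% lower for the sublingual array and 10.9% and 11.3% for the submandibular-labelled array, are the background for each count. Of 18 compared genes of collagen processing, 3 were higher and 2 lower by 2-fold on each of the sublingual and submandibular-labelled arrays. The prolyl hydroxylase subunit P4ha2, which stabilises the collagen helix, read 5.92 (sublingual), 5.75 (submandibular-labelled) and 3.72 (parotid), and so was 4.60-fold and 4.10-fold higher. Lepre1, the prolyl 3-hydroxylase P3h1, was 2.64-fold and 2.65-fold higher, and Plod1, a lysyl hydroxylase, 2.01-fold and 2.29-fold higher. The lysyl oxidase relative Loxl3 was at least 3.58-fold and 3.36-fold lower. The other hydroxylases of the list did not share this: P4ha1 and Plod3 were under 2-fold, P4ha3 had bounds of -0.39 and -0.44, and Plod2 was not well above background on any array.

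Basement membrane partners included Agrn (agrin), a heparan sulphate proteoglycan, at 2.89-fold and 3.56-fold lower, and Frem2, at least 3.18-fold and 3.48-fold lower. Those 2 were the lower ones of 7 compared. On the submandibular-labelled array 1, Egfl6, was higher by at least 3.02-fold. On the sublingual array 0 were counted as higher, but Egfl6 had a bound of at least 1.97-fold there, which does not settle whether it passed 2-fold. Of 18 matrix receptors, 1 was higher and 0 lower on the sublingual array, and 2 were higher and 1 lower on the submandibular-labelled array. Sdc2, a cell surface heparan sulphate proteoglycan, was higher by 1.49 and 1.73. Itga6, the laminin receptor subunit of hemidesmosomes, differed by 0.85 and 1.13, and Itga7, a laminin receptor subunit of muscle, by -0.88 and -1.14. The integrin subunit Itgb4 went the other way from Itga6, at -0.57 and -0.42, under 2-fold.

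Of 25 elastic fibre and matricellular genes, 5 were lower and 2 higher on the sublingual array, and of 24 on the submandibular-labelled array, 6 were lower and 2 higher. Bounds make up 2 of the 5 lower calls and 2 of the 6. Spp1 (osteopontin), an integrin-binding phosphoprotein, read -2.22 (sublingual), -2.40 (submandibular-labelled) and 0.83 (parotid), 8.27-fold and 9.38-fold lower. Spock1, a testican proteoglycan, was well above background on the parotid array only, and lower by bounds of -4.17 and -4.08 on the log2 scale. Wisp2, also called Ccn5, was 4.83-fold and 4.38-fold lower, and Thbs4, a thrombospondin, was 5.68-fold and 6.12-fold higher.

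Proteoglycans outside the members ran both ways, with 3 higher and 2 lower of 9 on the sublingual array, and 3 higher and 1 lower on the submandibular-labelled array. Bcan, the brain proteoglycan brevican, read 1.96 (sublingual), 2.62 (submandibular-labelled) and 8.24 (parotid), 77.7-fold and 49.3-fold lower. Fmod (fibromodulin) and Prelp, small leucine-rich proteoglycans that bind collagen like Dcn, were higher, by 2.56 and 2.99 for Fmod and by 2.03 and 2.43 for Prelp. Omd (osteomodulin), of the same family, differed by 1.25 and 0.54. Of 15 other proteases and inhibitors, 2 were higher and 2 lower in each comparison. The protease inhibitor Serpine2 was not well above background on the parotid array and was at least 9.03-fold and 8.97-fold higher, and the membrane protease Adam15 was 2.86-fold and 2.64-fold higher. Adamts5, an aggrecanase, was lower, at -1.73 and -2.04, as was Adamts10 (listed as LOC314655), at -1.67 and a bound of -1.89.

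Markers of cell types that make matrix differed between the arrays as well. The shares over all genes are the background for each 2-fold count of these lists. They were 12.5% higher and 12.3% lower for the sublingual array, and 10.9% and 11.3% for the submandibular-labelled array. Of 10 fibroblast markers that are not members, 4 (Thy1, Cd34, Pi16 and Tcf21) were not well above background on any array. Of the 6 compared, 0 were higher by 2-fold, and 1 was lower by 2-fold on the sublingual array and 2 on the submandibular-labelled array, with medians of -0.63 and -0.86. The summed level of the list was -13.7 (sublingual), -15.3 (submandibular-labelled) and -8.69 (parotid), and over the 6 well above background on every array it was 5.96, 4.25 and 9.62 in that order. Sums over whole lists include probes not well above background, whose levels are not measurements. Pdgfra, a receptor that defines fibroblasts, differed by -0.50 and -0.59, and Dpt by -1.31 and -1.58. Of the 6 compared, 5 were lower to any extent in each comparison, and 1, Fap, was higher, at 0.24 and 0.11. The part of the fibroblast markers in the lower fibrillar collagens was not tested.

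Myoepithelial and basal markers were higher on the sublingual and submandibular-labelled arrays in all 7 compared of 8 probed, with medians of 1.47 and 1.64, and the eighth, Oxtr, was not well above background on any array. Their summed level was 4.93 (sublingual), 7.01 (submandibular-labelled) and -6.67 (parotid), or 12.5, 14.6 and 3.04 over the 6 well above background on every array. Cnn1, a contractile protein of these cells, differed by 2.70 and 3.20, Krt5 (listed as Krt2-5) by 1.55 and 1.57, and Trp63 by 1.26 and 1.33. Cnn1 and Tagln also belong to the list of smooth muscle and pericyte markers. Of the 8 compared there, 2 were higher and 2 lower by 2-fold (sublingual), and 2 and 1 (submandibular-labelled). The medians of that list were 0.04 and -0.03. The brightest probes of Lama5 and Lamb3 were higher on the same arrays, though another Lamb3 probe went the other way, at -0.82 and -0.53. The part of the myoepithelial and basal markers in these differences was not tested.

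Endothelial markers were lower by 2-fold in 7 of 11 compared on the sublingual array and 2 on the submandibular-labelled array, with summed levels over 12 markers of -24.3 (sublingual), -21.6 (submandibular-labelled) and -12.9 (parotid), or -7.85, -5.09 and -0.789 over the 8 well above background on every array. Adipocyte markers were lower in 3 of 5 and 4 of 5, with summed levels over 9 markers of -24.1 (sublingual), -27.8 (submandibular-labelled) and -13.9 (parotid). Over the 4 adipocyte markers well above background on every array the sums were -0.670 (sublingual), -1.87 (submandibular-labelled) and 3.80 (parotid), and another 4 of the 9 were not well above background on any array. Immune markers were lower in 5 and higher in 2 of 11 compared in each comparison, with summed levels over 13 markers of 6.81 (sublingual), 5.91 (submandibular-labelled) and 11.1 (parotid), or 21.8, 22.2 and 25.7 over the 9 well above background on every array. Schwann and nerve markers were lower by 2-fold in 2 of 6 (sublingual) and 3 of 7 (submandibular-labelled), with 0 higher by 2-fold. Their medians were -0.84 and -0.99, and 2 and 3 of them were higher to any extent. The part of these cell types in the levels of Col18a1, Postn, Fn1 and Timp1 was not tested.

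**Figure D4:**
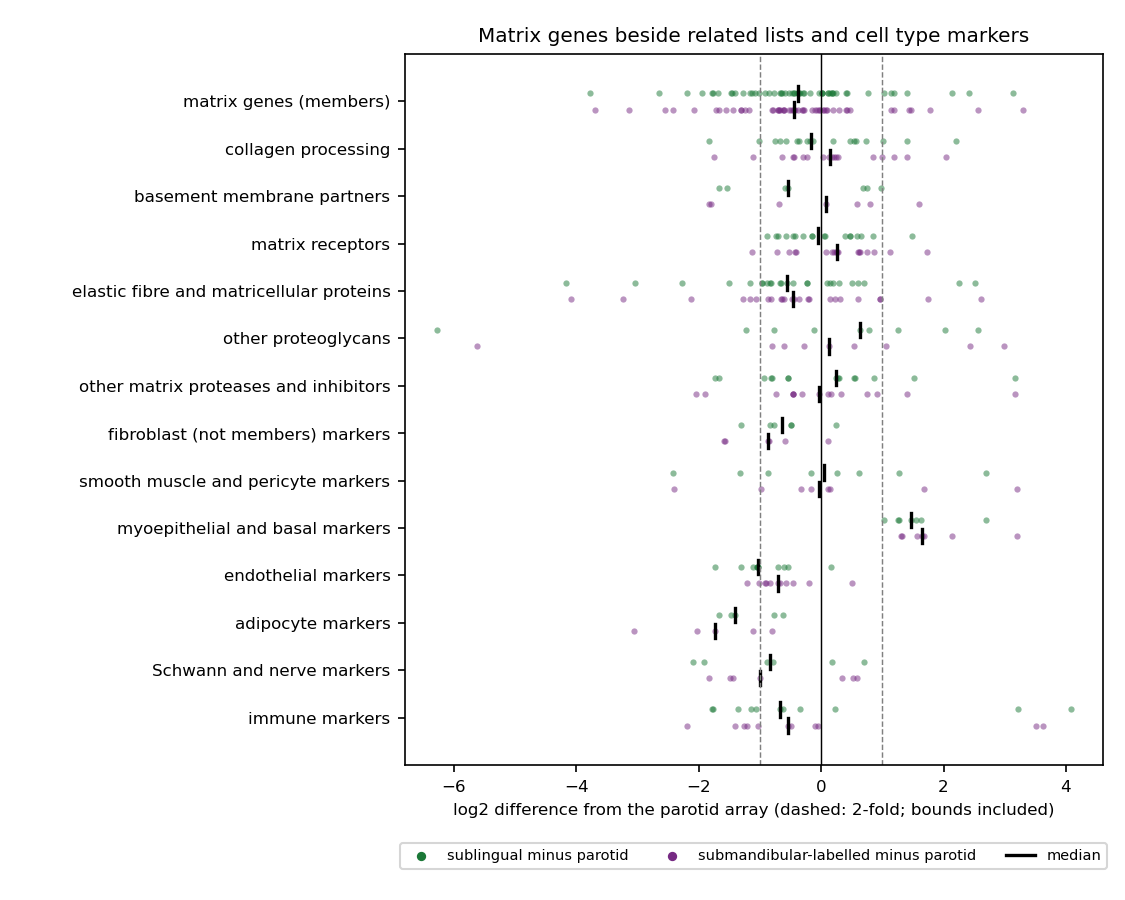
Log2 difference from the parotid array (x axis) of every compared gene in the matrix genes, 6 lists of related genes and 7 lists of cell type markers (y axis), for the sublingual array (green) and the submandibular-labelled array (purple); black ticks are medians and dashed lines mark 2-fold. The matrix genes have medians of -0.38 and -0.44, while the myoepithelial and basal markers all lie to the right of 2-fold, with medians of 1.47 and 1.64.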

How the data were processed

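RNA of the 3 glands was labelled with Cy3 by the Quick Amp method, per the labels' protocols, and measured on 1 array per gland, all on 1 slide. The deposited files hold spot intensity from Agilent Feature Extraction 10.1.1.1 (protocol GE1-v5_10_Apr08, array design 014879, probe coordinates in rn4), per the file headers. Deposited flags of 0 or 1 per spot mark spots well above background, saturated or outlying. The authors' value table holds a linear ratio, equal to the processed signal divided by 250 (sublingual), 236 (submandibular-labelled) or 190 (parotid), to within 0.0142 on the log2 scale. Its column medians are 0.128, 0.122 and 0.152 in that order, and genes were not centred.

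Levels are log2 processed signals minus the array's 75th percentile. Control spots and outlier spots (73 sublingual, 79 submandibular-labelled, 68 parotid) were left out, among them 1 spot of a member, Mmp9 on the parotid array. Spots of a probe were averaged, and a gene is its probe with the highest mean level over the arrays (25 members had several probes). Gene names were matched to RefSeq (GRCr8, for names) by symbol (9338), older symbol (5122), gene identifier (1209) or accession (238), which placed all 75 members. Promoters were found for 54 members. Col4a3bp, a ceramide transporter, is no collagen chain and was left out. Probes were not placed in exons or UTRs, since no genome of their build was used here.

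The members and all lists were chosen with earlier results of these data known. The named members are those at least 2-fold apart in any pair of arrays, up to 10 per family, and chain partners of types I, IV and VI collagen; up to 4 genes are named from each related list. Results of 1 member, kept in the counts and medians, are not reported here. Other members and cell type markers named were chosen after their values were seen. Alternatives were a 4-fold limit, median centring, quantile normalization, the deposited ratio, keeping outlier spots, comparing only members well above background on both arrays, the median of a gene's probes, and normexp correction with an offset of 50 (R 4.3.3, limma 3.58.1). The counting was tested on simulated data. Python 3.11.15, numpy 2.4.6, pandas 2.3.3 and matplotlib 3.10.9 were used. With 1 array per gland, no statistical test was made, and gland, animal and array position cannot be told apart.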

Additional observations from a re-analysis of the deposited data

How the results depend on the processing

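With 1 array per gland, no setting can show how the values would vary between animals. No paired analysis was possible because each gland has 1 array. At a limit of 4-fold, 6 members differed between sublingual and parotid and 7 between submandibular-labelled and parotid, against 22 and 20 at 2-fold. The other 7 alternatives kept these counts within 1.5 times, and the count past the limit between sublingual and submandibular-labelled was 0 under each of the 8. The split moved more: normexp correction gave 3 higher and 12 lower for sublingual against parotid, and 3 higher and 11 lower for submandibular-labelled against parotid. Median centring gave 8 higher and 11 lower, and 7 higher and 10 lower. No share over all genes is given for these splits, so they cannot be set against a background.

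The members' median for sublingual minus parotid was -0.14 with median centring and -0.47 with quantile normalization. For submandibular-labelled minus parotid it was -0.27 with normexp correction, -0.12 with median centring and -0.35 for members well above background on both arrays. The median of the members minus that of all genes stayed between -0.48 and -0.35 for sublingual minus parotid, and between -0.54 and -0.32 for submandibular-labelled minus parotid, under the scalings and filters run. Mmp16 and Lamb3 have probes that disagree in sign. Levels near the lowest well-above-background level (-3.74 sublingual, -3.65 submandibular-labelled, -3.43 parotid) limit what can be compared: 21 of 75 members were not measurable on any array.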

Other observations

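Further matrix genes are on the array under names that the name rule does not catch, and were found through RefSeq. Lama4, a laminin alpha chain of vessels and muscle (listed as RGD1560062), read -1.42 (sublingual), -1.36 (submandibular-labelled) and -0.20 (parotid), which is 2.33-fold and 2.23-fold lower than the parotid. Mmp28, a secreted Mmp (listed by its accession), read -3.50 (sublingual), -2.96 (submandibular-labelled) and -1.97 (parotid), a difference of -1.53 and -0.99. Col4a6, a type IV chain (listed as LOC363458), differed by -0.39 and -0.47, and Timp4 (listed as LOC680130) by 0.54 and 0.79. Col20a1 differed by 0.05 and 0.14. The large proteoglycan Vcan, listed as Cspg2, and Col4a3 were not well above background on any array. The directions of Lama4 and Lama5, both alpha chains, were therefore opposite on these arrays.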
